A study of Mus musculus with 6 samples.

Results

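Transcripts of 10 secreted cytokines were followed in 4T1 cells treated with corticosterone: the colony-stimulating factors Csf1, Csf2 and Csf3, the IL-6 family members Lif and Il6, the IL-1 family members Il1a, Il1b and Il33, and Tslp and Tnf. The genes were chosen by name, with earlier results of these data known. All 10 were found among the 28154 genes of the deposited table, each as 1 row. 4T1 is a mouse mammary carcinoma line that spreads from tumours grown in syngeneic mice. Set side by side were 3 libraries of 4T1 cells labelled as treated with corticosterone, the main circulating glucocorticoid of mice, and 3 libraries of 4T1 cells labelled control. All 6 carry the same cell line label, and the labels state no further modification. The sources used here give no dose, no length of treatment and no word on whether replicates came from separate cultures, so that p-values measure the spread between these libraries. The comparison asks how corticosterone moves the messages by which these carcinoma cells signal to myeloid and other immune cells.

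Colony-stimulating factors drive the production, survival and activation of neutrophils and macrophages, and mammary tumours that release them are known for raising circulating myeloid cells. IL-1α, IL-1β, TNF and IL-6 are inflammatory cytokines that act through NF-κB or STAT3 in the cells that receive them, while TSLP and IL-33 are epithelial alarm signals. Glucocorticoids bind the glucocorticoid receptor, which activates some genes through its own DNA elements and represses many cytokine genes whose promoters are driven by NF-κB and AP-1. Many cytokine mRNAs also carry AU-rich elements after the coding sequence, which are bound by decay factors of the ZFP36 family.

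Of the 10 cytokines 5 fell with corticosterone, namely Tslp, Csf2, Il1a, Csf3 and Csf1, and 0 rose, neither in edgeR nor in DESeq2, nor among the 6 that limma tested. Tslp and Csf2 fell to 2.37-fold and 2.28-fold lower levels, Il1a and Csf3 fell 1.61-fold and 1.60-fold, and Csf1 fell 1.24-fold. A gene is said to have risen or fallen where its adjusted p was under 0.05 in edgeR's quasi-likelihood test, with Benjamini-Hochberg adjustment over all 17283 genes tested. In that test 1.46% of all genes fell and 1.35% rose. All 10 had enough counts to be tested. At an unadjusted p under 0.05, which 17% of all tested genes reached, Lif joined the 5 that fell and still 0 rose. Across the 10, 9 log2 fold changes were negative. The median log2 fold change of the 10 was -0.35, against 0.00 over all tested genes. In 6 of the 10, the 5 that fell and Lif, every corticosterone library was below every control library in CPM (counts scaled to library size), as it was for 11.6% of all tested genes.

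The libraries held 62175495 to 66249288 counts with corticosterone and 63398404 to 65915866 in controls. Of 5 tested known targets of the glucocorticoid receptor 5 rose, with log2 fold changes of 1.75 for Per1, 1.55 for Tsc22d3, 1.28 for Klf9 and 0.77 for Fkbp5, and with Sgk1 between the last pair. Zbtb16, another target, had 12, 6 and 4 counts in corticosterone libraries against 0, 0 and 0 in control libraries and was too low to test. Corticosterone replicate 2 stood apart. On the first principal component, which held 29% of the variance, it lay at 9.17, between the other corticosterone libraries at 29.6 and 38.5 and the controls at -33.8 to -21.5. Without this library edgeR called 10% of genes lower and 10.5% higher, and the cytokines that fell were 6, the same 5 and Lif. Epithelial markers (Epcam, Cdh1, keratins and Cldn4) summed to 4280 to 4990 CPM with corticosterone and 4580 to 4850 CPM in controls, and edgeR called 0 of the 8, where 2 had an unadjusted p under 0.05 (17% of all tested genes had) and DESeq2 called 1 lower (4.45% of all genes). The 10 leukocyte markers summed to 205 to 291 CPM with corticosterone and 207 to 230 CPM in controls, mostly Lyz2, while Cd3e, a T cell receptor subunit, had at most 10 counts in any library. The 5 fibroblast markers summed to 35.2 to 39.6 and 29.4 to 37.3 CPM, and the 4 endothelial markers to 0.708 to 0.851 and 1.37 to 2 CPM, in corticosterone and control libraries in that order. Of the 7 leukocyte, 4 fibroblast and 1 endothelial markers with enough counts to test, 0 passed in edgeR, and Pecam1, an endothelial adhesion molecule with 36, 45 and 39 counts in corticosterone libraries against 72, 105 and 64 in control libraries, had an unadjusted p under 0.05 and passed in DESeq2. Without corticosterone replicate 2, 3 of the 8 epithelial markers and 1 of 2 tested endothelial markers fell. The part of these markers in the results was not tested. In bulk RNA fewer cells of a kind and less RNA per cell cannot be told apart.

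**Figure D1:**
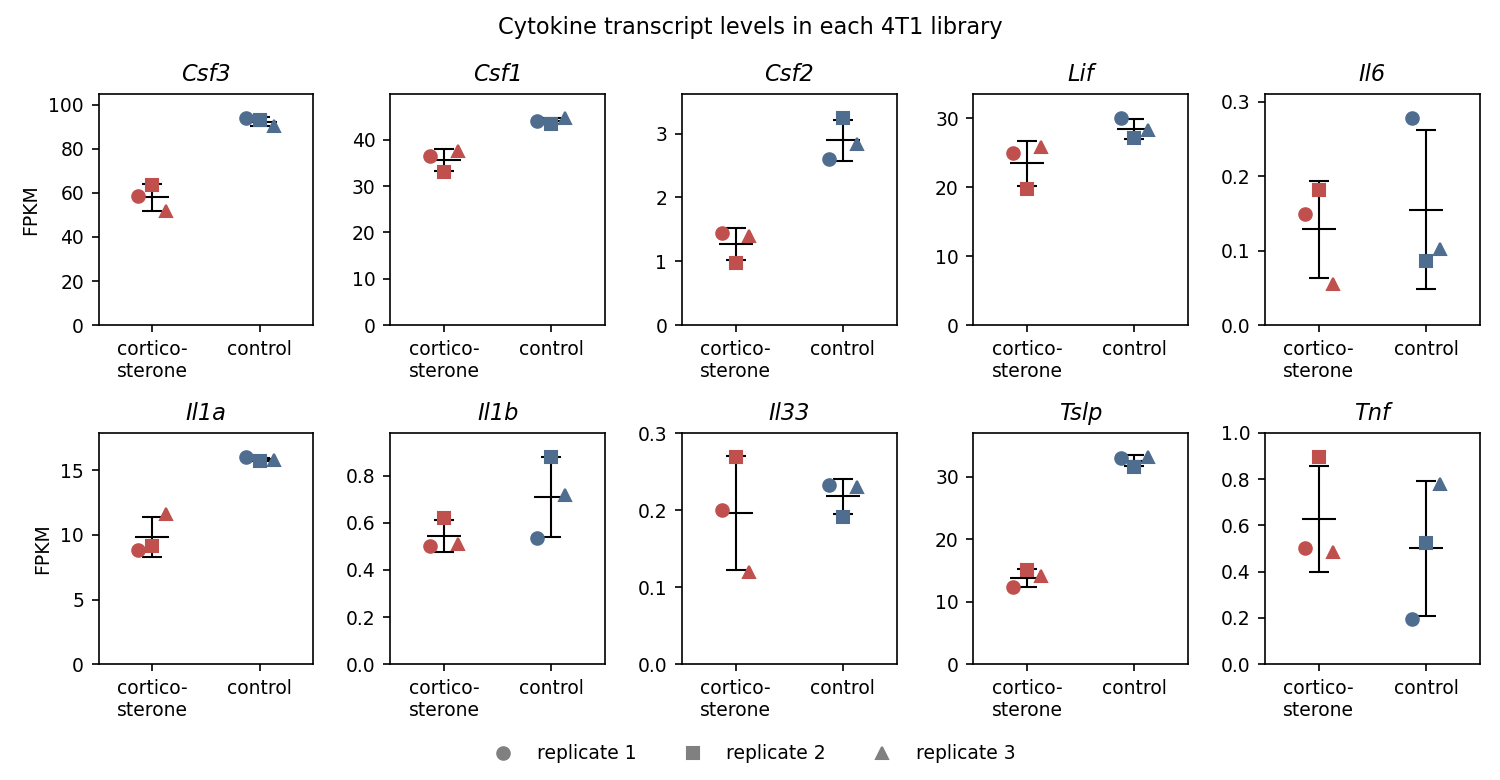
Transcript levels in FPKM (fragments scaled to transcript length and library size, as deposited) of the 10 cytokines in each library, with corticosterone (red) left of control (blue). Each symbol is 1 library, and lines give the mean and SD of 3 libraries; Csf3 averaged 58.0 FPKM with corticosterone and 92.3 FPKM in controls, and the groups overlap for Il6, Il1b, Il33 and Tnf.

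The cytokines differed widely in level. Per length of transcript, the order in corticosterone-treated cells was Csf3 (58.0 FPKM), Csf1 (35.7), Lif (23.5), Tslp (13.8), Il1a (9.86), Csf2 (1.27), Tnf (0.627), Il1b (0.544), Il33 (0.197) and Il6 (0.129 FPKM). In control cells it was Csf3 (92.3 FPKM), Csf1 (44.0), Tslp (32.5), Lif (28.4), Il1a (15.8), Csf2 (2.90), Il1b (0.711), Tnf (0.500), Il33 (0.218) and Il6 (0.155 FPKM). Tslp and Lif thus stood in the opposite order in the 2 groups, without overlap between both genes in either group. Ranges of neighbours overlapped for Tnf and Il1b and for Il33 and Il6 in both groups, and also for Tnf and Il33 in controls.

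Csf3 encodes G-CSF, the growth factor of neutrophils, and was the most abundant of the 10 in every library (ENSMUSG00000038067, chromosome 11, 98701263 to 98703629, plus strand, in mouse build GRCm38). It had 58.5, 63.7 and 51.7 FPKM in corticosterone replicates 1, 2 and 3, against 93.8, 93.1 and 90.1 FPKM in control replicates 1, 2 and 3. The groups were far apart, and the corticosterone libraries spread more widely than the controls. Its log2 fold change was -0.68 (SE 0.0832; edgeR adjusted p = 0.00615). The call was lost without control replicate 2 (edgeR adjusted p = 0.0558) and held without each other library in turn.

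Csf2 encodes GM-CSF, which acts on granulocytes, macrophages and dendritic cells (ENSMUSG00000018916, chromosome 11, 54247271 to 54249667, minus strand). It was a rare message, with 82, 59 and 82 counts in corticosterone libraries, against 150, 192 and 169 counts in control libraries. Per length this was 1.44, 0.978 and 1.40 FPKM with corticosterone, against 2.61, 3.24 and 2.84 FPKM in controls. The highest corticosterone library lay well below the lowest control. The log2 fold change was -1.19 (SE 0.204; edgeR adjusted p = 0.0223), and the SE was the widest among the 5 that fell. Its call held without corticosterone replicate 2 (edgeR adjusted p = 0.0079) and was lost without each of the other 5 libraries, with edgeR adjusted p of 0.0571 to 0.123. Csf2 overlaps the antisense gene Gm12223 over 2068 bases, and since the sources used here do not state strandedness the 2 cannot be fully told apart. Gm12223 had 5, 0 and 8 counts with corticosterone and 6, 11 and 9 in controls, far fewer than Csf2.

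Csf1 encodes M-CSF, the growth factor of macrophages (ENSMUSG00000014599, chromosome 3, 107741048 to 107760469, minus strand). It had 36.4, 33.0 and 37.6 FPKM in corticosterone libraries, against 44.1, 43.4 and 44.6 FPKM in control libraries. The controls were nearly level, and all 3 corticosterone libraries were lower, that of replicate 2 most. The change was small but precise, at a log2 fold change of -0.31 (SE 0.0547; edgeR adjusted p = 0.0241). The call held without corticosterone replicates 2 or 3 (edgeR adjusted p = 0.00273 and 0.0437) and was lost without each of the other 4 libraries, with edgeR adjusted p of 0.12 to 0.135.

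The colony-stimulating factors were also set against each other within each library, a comparison chosen after their values were seen. The ratio of Csf3 to Csf1 in FPKM was 1.61, 1.93 and 1.38 in corticosterone libraries and 2.12, 2.15 and 2.02 in control libraries. The groups did not overlap, but an exact permutation test of 3 against 3 libraries cannot go below 0.1 (two-sided p = 0.1, and 0.2 with Benjamini-Hochberg adjustment over 4 such ratios). The ratio of Csf3 to Csf2 was 40.6, 65.1 and 37.0 with corticosterone and 35.9, 28.7 and 31.7 in controls, higher in all 3 corticosterone libraries (exact permutation test, two-sided p = 0.1, adjusted 0.2).

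The messages of Csf2, Csf3 and Tnf are textbook carriers of AU-rich elements. The stretches after the stop codon were therefore read from the longest complete GENCODE M21 transcript end of each of the 10 genes. They were searched for the pentamer ATTTA on the sense strand, overlaps included. The densest 30 bases of Csf2, Csf3, Il1b and Tnf are shown because these 4 regions hold the most pentamers per kilobase among the 10, with each ATTTA in capitals (T stands for U of the RNA):
Csf2: aaatATTTATTTATTTATTTATTTAttttt
Csf3: tatctctATTTAatATTTAtgcatATTTAa
Il1b: ttacctATTTATTTAtgtATTTAttgattg
Tnf: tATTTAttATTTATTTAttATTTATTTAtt
Those of Csf1 and Il1a are set beside them (Csf2, Csf3, Csf1 and Il1a fell, while Il1b and Tnf did not pass):
Csf1: aaggtcATTTAaatatctATTTAaaaaata
Il1a: gtATTTAtaaatatATTTAtgataattata

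The 3′ untranslated region of Csf2 held 9 pentamers in 317 bases, 5 of them in the stretch shown. Of 973 such regions within 20% of its length, 0.103% held at least as many, that of Csf2 included. The percentages for the other genes count their own region too. Csf3 held 6 in 669 bases (1.30% of regions of like length held as many), Tnf 8 in 764 bases (0.193%), Il1b 4 in 459 bases (2.67%) and Il6 10 in 1668 bases (1.72%). The other 5 had 2 pentamers in Tslp (30.8% of regions of like length held as many), 3 in Il1a (30.1%), 4 in Csf1 (45.8%), 7 in Lif (34.0%) and 3 in Il33 (48.5%). Over all 13336 regions read, the median was 1.29 pentamers per kilobase, against 28.4 for Csf2. A match describes the letters, and decay was not measured.

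Lif encodes leukemia inhibitory factor, a cytokine of the IL-6 family that signals through gp130 (ENSMUSG00000034394, chromosome 11, 4257557 to 4272514, plus strand). It had 24.9, 19.7 and 25.8 FPKM in corticosterone libraries, against 30, 27.1 and 28.3 FPKM in control libraries. All 3 corticosterone libraries lay below all controls, with replicate 2 lowest by a wide margin. Its log2 fold change of -0.28 (SE 0.092) did not pass (edgeR adjusted p = 0.169). Without corticosterone replicate 2 the log2 fold change was nearer to 0, at -0.18, and passed (edgeR adjusted p = 0.0342).

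Il6 encodes interleukin-6, the inducer of the acute phase response (ENSMUSG00000025746, chromosome 5, 30013114 to 30019981, plus strand). It was barely detected, with 26, 35 and 11 counts in corticosterone libraries, against 50, 16 and 20 counts in control libraries. The groups overlapped, and control replicate 1 was the highest of the 6 libraries. The log2 fold change of -0.26 (SE 0.584; edgeR adjusted p = 0.863) turned positive, to 0.43, without control replicate 1 and to 0.09 without corticosterone replicate 3, so that it had no settled direction in these libraries. Lif was 109 to 463 times as abundant per length as Il6 with corticosterone and 108 to 315 times in controls, and this ratio overlapped between groups (exact permutation test, two-sided p = 1).

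Il1a encodes IL-1α, an alarm cytokine held inside epithelial cells and released on injury (ENSMUSG00000027399, chromosome 2, 129299610 to 129309972, minus strand). It had 8.80, 9.13 and 11.6 FPKM in corticosterone libraries, against 16, 15.7 and 15.8 FPKM in control libraries. The controls agreed closely, and corticosterone replicate 3 was nearest to them while still well below. The log2 fold change was -0.69 (SE 0.106; edgeR adjusted p = 0.0145). The call held without corticosterone replicates 2 or 3 (edgeR adjusted p = 0.00469 and 0.00741) and was lost without each of the other 4 libraries, with edgeR adjusted p of 0.0695 to 0.0914. Il1a overlaps Gm14023 on the opposite strand, which had 6, 4 and 18 counts with corticosterone and 9, 17 and 12 in controls, against 1222 to 1675 and 2265 to 2312 counts of Il1a.

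Il1b encodes IL-1β, which is made as a precursor and cut by caspase-1 (ENSMUSG00000027398, chromosome 2, 129364570 to 129371139, minus strand). It had 68, 90 and 72 counts in corticosterone libraries, against 74, 125 and 103 counts in control libraries. Control replicate 1 lay within the range of the corticosterone libraries, so the groups overlapped. Its log2 fold change of -0.39 (SE 0.242) did not pass (edgeR adjusted p = 0.466). Il1b overlaps Il1bos on the opposite strand, whose 37, 23 and 31 counts with corticosterone and 51, 45 and 62 in controls are not small beside it, so the values of Il1b are uncertain. The ratio of Il1a to Il1b, 14.7 to 22.8 with corticosterone and 17.8 to 29.9 in controls, overlapped between groups (exact permutation test, two-sided p = 0.4, adjusted 0.533).

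Il33 encodes IL-33, a nuclear alarm cytokine of barrier epithelia (ENSMUSG00000024810, chromosome 19, 29925114 to 29960718, plus strand). It had 42, 60 and 27 counts in corticosterone libraries, against 49, 41 and 51 counts in control libraries. The controls lay inside the spread of the corticosterone libraries. Its log2 fold change of -0.12 (SE 0.34; edgeR adjusted p = 0.89) became 0.13 without corticosterone replicate 3.

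Promoter windows from 250 bases before to 50 bases after the RefSeq start of transcription (build GRCm38.p6) were matched for 8 of the 10 genes, not for Csf3 and Tslp. They were searched on both strands for the AP-1 element TGANTCA, the NF-κB consensus (by its name, as it needs further letters) and the glucocorticoid receptor half-site AGAACA, which do not overlap each other in these windows. The windows of Il1a and Csf1, which fell, and of Il6, which did not pass, are shown because they hold 3 different combinations, with every match in capitals. That of Il1a is chr2:129309923-129310222 (minus strand), that of Csf1 is chr3:107760420-107760719 (minus strand) and that of Il6 is chr5:30012864-30013163 (plus strand), each written along its gene:
Il1a: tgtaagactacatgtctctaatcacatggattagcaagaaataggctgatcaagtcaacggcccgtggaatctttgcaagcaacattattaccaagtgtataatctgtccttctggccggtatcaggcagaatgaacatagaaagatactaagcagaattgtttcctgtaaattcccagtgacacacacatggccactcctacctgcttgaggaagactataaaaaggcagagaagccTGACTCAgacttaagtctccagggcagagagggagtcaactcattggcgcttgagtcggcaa
Csf1: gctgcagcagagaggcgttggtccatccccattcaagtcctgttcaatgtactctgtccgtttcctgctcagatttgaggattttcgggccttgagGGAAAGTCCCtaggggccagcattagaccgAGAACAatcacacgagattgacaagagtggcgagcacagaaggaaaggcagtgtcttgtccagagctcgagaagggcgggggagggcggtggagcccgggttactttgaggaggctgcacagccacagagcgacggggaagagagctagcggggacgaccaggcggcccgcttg
Il6: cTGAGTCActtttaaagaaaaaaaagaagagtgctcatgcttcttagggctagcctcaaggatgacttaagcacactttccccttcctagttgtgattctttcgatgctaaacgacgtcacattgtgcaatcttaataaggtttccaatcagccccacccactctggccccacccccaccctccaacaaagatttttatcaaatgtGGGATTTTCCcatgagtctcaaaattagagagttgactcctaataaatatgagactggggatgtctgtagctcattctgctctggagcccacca

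Il1a had 1 AP-1 match, at -12 to -6 from the start. TATAA, searched on the gene's own strand and left in lower case, was at -152 and -32 in Il1a and was also matched in Il1b, Tnf and Il33 (17.5% of all windows hold it). Csf1 had an NF-κB match at -154 to -145 and a half-site at -124 to -119. Il6 had an AP-1 match at -249 and an NF-κB match at -44, and Lif had both as well, at -228 and -178. No match of the 3 was in the windows of Il1b, Il33, Tnf and Csf2. The RefSeq start of Csf2 lies 232 bases upstream of its start in the deposited table. The bases just before that deposited start were thus outside the window and were not searched. Over all 32851 windows, AP-1 was matched in 7.81%, NF-κB in 8.46% and the half-site in 19% of them. These matches describe the letters and were not measured as binding.

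Tslp encodes thymic stromal lymphopoietin, an epithelial cytokine that acts on dendritic cells and other leukocytes (ENSMUSG00000024379, chromosome 18, 32815383 to 32819797, plus strand). It had 12.3, 15 and 14.1 FPKM in corticosterone libraries, against 33.0, 31.6 and 33.1 FPKM in control libraries. The highest corticosterone library was under the lowest control by a wide gap, and replicate 2 was the closest to the controls. The log2 fold change was -1.24 (SE 0.0904; edgeR adjusted p = 0.00078), and 0.66% of tested genes had a lower one. Tslp was the 1 cytokine of the 10 whose call held without each library in turn, with edgeR adjusted p of 3.49e-05 to 0.0122. GENCODE M21 places the noncoding gene 4930455D15Rik across all of Tslp on the opposite strand, and the part of its reads in the counts of Tslp was not tested.

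Tnf encodes tumour necrosis factor, which macrophages make in quantity (ENSMUSG00000024401, chromosome 17, 35199381 to 35202007, minus strand). It had 58, 110 and 58 counts in corticosterone libraries, against 24, 64 and 95 counts in control libraries. Control libraries spread several-fold, and the groups overlapped. Its log2 fold change, the 1 positive value of the 10, was 0.31 (SE 0.469; edgeR adjusted p = 0.782), and it became -0.05 without corticosterone replicate 2 and -0.06 without control replicate 1.

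**Figure D2:**
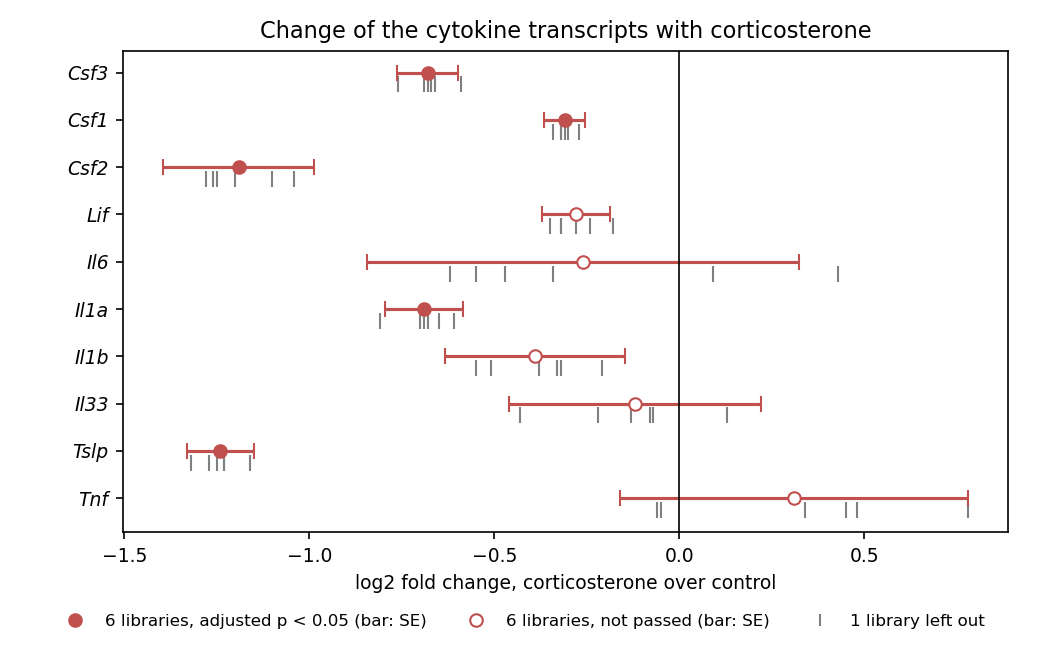
Log2 fold change of each cytokine, corticosterone over control, from all 6 libraries (circles with SE; filled where the adjusted p was under 0.05) and with 1 library left out (grey ticks). Values of Tslp stay between -1.32 and -1.16 and those of Csf1 between -0.34 and -0.27, while the ticks of Il6, Il33 and Tnf lie on both sides of 0.

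Lists of genes around the cytokines were counted in the same test, in which 1.46% of all genes fell and 1.35% rose. Of 16 tested receptor chains 1 fell and 0 rose, the median being 0.09 on the log2 scale. The receptor that fell was Tnfrsf1b, TNF receptor 2, with 8, 7.63 and 8.58 FPKM in corticosterone libraries, against 10.9, 10.6 and 10.3 FPKM in control libraries (log2 fold change -0.40, SE 0.0652; edgeR adjusted p = 0.019). Its groups did not overlap, but the call was lost without corticosterone replicate 1 or any control library, with edgeR adjusted p up to 0.115. The other chains of lowest p did not pass: Il6ra, the IL-6 receptor, had a log2 fold change of -0.26, Il7r, which pairs with CRLF2 to bind TSLP, of 0.21, and Il6st, the shared chain gp130, of 0.19.

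Among 12 antagonists and feedback inhibitors 2 fell and 0 rose, with a median of 0.01. Cish, a cytokine-induced inhibitor of STAT5 signalling, had 0.371, 0.422 and 0.435 FPKM with corticosterone and 0.733, 0.664 and 0.640 FPKM in controls (log2 fold change -0.73; edgeR adjusted p = 0.0271). Tnfaip3, which encodes A20, a brake on NF-κB, had 19.5, 16.9 and 19.9 FPKM with corticosterone and 23.0, 22.8 and 23.0 FPKM in controls (-0.30; edgeR adjusted p = 0.0478). Both calls held without corticosterone replicate 2 and were lost without each of the other 5 libraries, with edgeR adjusted p up to 0.131 and 0.212. Cish overlaps Gm17040 and Gm17041 on the opposite strand over 1167 and 1459 bases. The part of their reads in the counts of Cish was not tested. Nfkbia, which encodes IκBα, and Il18bp, an IL-18 trap, did not pass (log2 fold changes of 0.18 and -0.45, the second uncertain since Il18bp overlaps Numa1).

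Of 14 tested genes for processing and release 0 passed in edgeR, 3 having an unadjusted p under 0.05 (17% of all tested genes had), with a median of -0.03, and 0 passed among the 14 tested in DESeq2 or the 11 tested in limma. The pore former Gsdmd (-0.32), the iRhom Rhbdf1 (-0.18), the inflammatory caspase Casp4 (0.40) and Adam17, the protease that sheds TNF (-0.12), had the lowest p. Adam17 overlaps Iah1 on the opposite strand over 311 bases, and the part of Iah1 reads in the counts of Adam17 was not tested.

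Among other cytokines that an epithelial tumour cell can make, 1 of 16 tested fell and 1 rose, with a median of -0.16. Il23a, the p19 subunit of IL-23, fell, with 21.3, 20.7 and 20.3 FPKM in corticosterone libraries, against 24.2, 25.8 and 25.7 FPKM in control libraries (-0.29; edgeR adjusted p = 0.0432). Kitl, the stem cell factor, rose, with 5.92, 4.21 and 6.17 FPKM with corticosterone and 3.52, 3.60 and 3.43 FPKM in controls (0.62; edgeR adjusted p = 0.0459). Neither pair of groups overlapped, yet each call held only without corticosterone replicate 2 when libraries were left out, with edgeR adjusted p up to 0.228 and 0.203. Il18 had a log2 fold change of -0.64 and just missed the threshold (edgeR adjusted p = 0.0551), and Il34, the second ligand of the M-CSF receptor, had one of 0.42 and did not pass.

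Of 12 tested proteins that bind cytokine mRNAs 2 rose and 0 fell, with a median of 0.04. Zfp36l2, a decay factor for AU-rich messages, rose, with 129, 114 and 132 FPKM in corticosterone libraries, against 81.5, 77.3 and 75.5 FPKM in control libraries (log2 fold change 0.67, SE 0.0615; edgeR adjusted p = 0.00193). The groups were well separated and the call held without each library in turn, with edgeR adjusted p up to 0.0282. Zfp36, which encodes tristetraprolin, the best studied factor of the family, had 9.79, 10.1 and 9.75 FPKM with corticosterone and 7.97, 7.47 and 7.61 FPKM in controls (0.36; edgeR adjusted p = 0.0293), a call that held only without corticosterone replicate 2, with edgeR adjusted p up to 0.187 without the others. The endonuclease Zc3h12a (regnase-1, -0.26) and its relative Zc3h12c (0.53) did not pass.

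Of 18 transcription factors known to act at cytokine promoters 1 rose and 0 fell, with a median of 0.09. Fosl1, the AP-1 subunit FRA1, rose, with 55.0, 57.3 and 49.8 FPKM with corticosterone and 41.3, 42.4 and 43.8 FPKM in controls (0.34; edgeR adjusted p = 0.0454). The call was lost without corticosterone replicate 1 or any control library, with edgeR adjusted p up to 0.216, and Fosl1 overlaps Ccdc85b on the opposite strand over 2767 bases. Ccdc85b had 8407 to 11523 counts with corticosterone and 9018 to 10118 in controls, so the counts of Fosl1 are uncertain. Cebpb (0.17), Junb (-0.17) and Fos (0.31) did not pass. Cebpb overlaps Tmem189 on the opposite strand over 908 bases, and Tmem189 had 2594 to 2962 counts a library, so the value of Cebpb is uncertain too.

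The counts of these lists differed between settings. An unadjusted p under 0.05 in edgeR, which 17% of all tested genes reached, was found for 2 of 16 receptors, 5 of 12 inhibitors, 3 of 14 processing genes, 5 of 16 other cytokines, 4 of 12 binding proteins and 1 of 18 transcription factors. Without corticosterone replicate 2, where edgeR called 10% of all genes lower and 10.5% higher, calls were 1 lower and 2 higher of 16 receptors, 4 lower and 1 higher of 12 inhibitors, and 3 lower and 0 higher of 14 processing genes. In the same fit they were 4 lower and 2 higher of 16 other cytokines, 1 lower and 4 higher of 12 binding proteins, and 2 lower and 4 higher of 18 transcription factors. Several of these shares are near those of all genes. DESeq2, which called 4.45% of all genes lower and 4.21% higher, called 1 of 15 receptors lower, 2 of 12 inhibitors lower and 1 higher, 2 of 14 other cytokines lower and 2 higher, 1 of 12 binding proteins lower and 2 higher, and 1 of 18 transcription factors higher. Limma on FPKM, which called 2.43% of all genes lower and 1.82% higher, called 1 of 10 receptors lower, 0 of 10 inhibitors, 2 of 12 other cytokines lower and 0 higher, 2 of 12 binding proteins higher and 1 of 18 transcription factors higher. Tnfaip3 and Kitl were thus not called by limma (adjusted p = 0.0696 and 0.0707). Cish was too low for limma's FPKM filter and was not tested there.

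**Figure D3:**
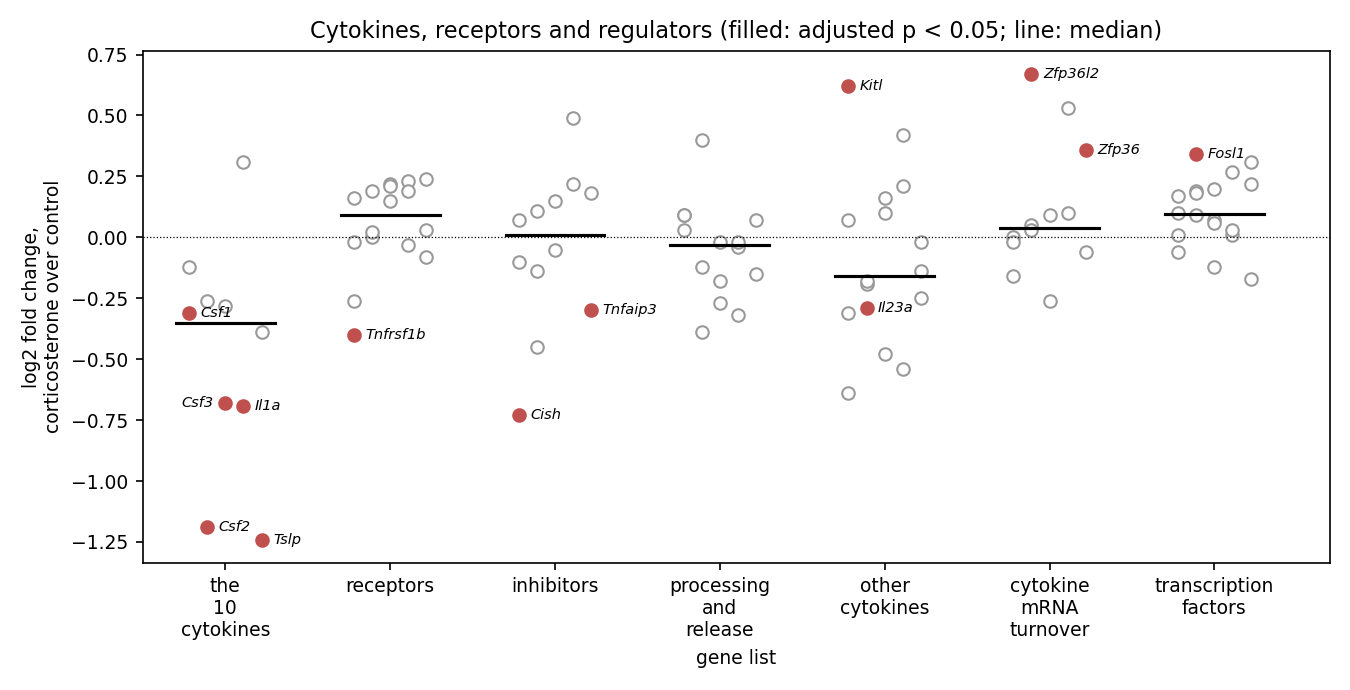
Log2 fold change, corticosterone over control, of each tested gene of the 10 cytokines and of 6 lists around them, with called genes filled and named and the median of each list as a line. The median is -0.35 for the cytokines and between -0.16 and 0.09 for the other lists.

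Genes whose level followed each fallen cytokine most closely over the 6 libraries were sought among tested genes with a mean of at least 5 FPKM. The search ran over 7438 genes, or 7439 for Csf2, and such r, which follow the difference between groups, are descriptive. For Tslp they were Gm10282, the protease inhibitor Slpi, Pclaf, the gelatinase Mmp9 and the kinase Jak3 (Pearson r of log2 CPM 0.995 to 0.998). All 5 fell, Slpi by 1.37 and Mmp9 by 0.92 on the log2 scale. A search for a high r to a fallen gene favours genes that fell, so such falls are no separate result. For Csf3 they were the desaturase Fads2, Tead2, Micall2, the actin bundler Fscn1 and Epha1 (0.992 to 0.998), and all but Epha1 fell. For Csf1 they were Sertad4, the peptide ligand Apln, Actg1, the lipase Lipg and Odc1, the first enzyme of polyamine synthesis (0.990 to 0.994). All but Actg1 fell. For Il1a they were Fundc1, Gm6563, Elovl6, Prkra and Nptxr (0.983 to 0.988), of which only Nptxr fell. For Csf2 they were Noct, Papss1, Cp (ceruloplasmin), Aif1l and Asap1 (0.989 to 0.995), of which only Cp fell. No gene was shared between these 5 groups of 5, and no cytokine of the 10 was among them. Csf2, Il1b, Tnf, Il33 and Il6 averaged under 5 FPKM, so the search could not return them.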

How the data were processed

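RNA sequencing of 6 libraries of 4T1 cells was used, 3 corticosterone and 3 control, grouped by the labels. Per the file headers, the authors deposited whole-number counts per gene, not normalized, and FPKM values per gene beside them. Aligner, counter and strandedness are unknown from the sources at hand. GRCh38 is the one genome build in the submitters' processing notes, yet all 28154 identifiers are of mouse, and the coordinates of all 10 cytokine genes equal those of GENCODE M21 (build GRCm38). The number of value columns without a sample was 0.

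TMM scaling, filterByExpr (minimum count 10, minimum total 15) and edgeR 4.0.16 in R 4.3.3 gave quasi-likelihood tests of group for 17283 genes, adjusted by Benjamini-Hochberg over all of them. At 62175495 to 66249288 counts a library, 3 counts equal 0.0453 to 0.0483 CPM. DESeq2 1.42.0, limma 3.58.1 on log2(FPKM + 1) or log2(FPKM + 0.1), other size factors, no low count filter, a replicate block and leaving out each library were alternatives; limma needed at least 1 FPKM in 3 libraries, and its fold changes understate those of low genes. Libraries of the same number hardly moved together (r of deviations 0.0106, 0.0379 and -0.0884) and were not paired. Replicates differed beyond sampling noise (chi-square per degree of freedom 9 to 70.1). The test was checked on simulated data with 200 changed genes. It called 41.2% of genes changed 1.5-fold and 69.5% of those changed 2-fold, with 10 false calls. A gene that did not pass can thus still differ. The cytokines and lists were chosen with earlier results of these data known. Genes named were all 10 cytokines, up to 4 genes of lowest p in each list, markers, overlapping genes and, for each fallen cytokine, the 5 genes of highest r.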

Additional observations from a re-analysis of the deposited data

How the results depend on the processing

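Over 13 alternatives the direction of all 5 cytokines that fell was kept, with log2 fold changes of -1.32 to -1.16 for Tslp, -1.28 to -0.78 for Csf2, -0.76 to -0.59 for Csf3, -0.81 to -0.61 for Il1a and -0.34 to -0.27 for Csf1. Cytokines called lower numbered 5 with DESeq2, with median ratio size factors in edgeR and with limma on log2(FPKM + 1) or log2(FPKM + 0.1), 2 without a low count filter or with limma without an FPKM filter, 3 with the replicate block, and 1 to 6 with 1 library left out. None was called higher under any of them. The values of Il6 (-0.62 to 0.43), Il33 (-0.43 to 0.13) and Tnf (-0.06 to 0.78) changed sign with 1 library left out; Il6 was 0.43 without control replicate 1 and Tnf -0.05 without corticosterone replicate 2. Over all genes, 234 were called higher and 253 lower; the counts were 629 and 664 with DESeq2, 112 and 99 without a low count filter, 135 and 125 with limma without an FPKM filter, and 130 and 107 with the replicate block. With 1 library left out they were 60 to 1884 higher and 28 to 1786 lower, highest without corticosterone replicate 2. Leave-one-out fits have fewer samples; other causes were not tested. With the replicate block the edgeR adjusted p was 0.0746 for both Csf1 and Csf2. Counts per list without corticosterone replicate 2 were chosen after seeing the data. Il6, Il33, Il1b and Tnf had 11 to 125 counts a library, and whether depth or the spread between libraries limits them was not tested. With the replicate block 1 binding protein was called among the lists around the cytokines.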
